A study of Mus musculus with 25 samples.

Results

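The 8 genes described are the AP-1 genes Fos, Fosb, Fosl1, Fosl2, Jun, Junb, Jund and Atf3, taken by their symbols from a table of 30903 gene symbols in 25 single cells. All 8 were found, each on a single row. The cells were taken from the Arc-ME, the hypothalamic arcuate nucleus together with the median eminence below it; tissue of 2 male RIP-Cre mice, strain (C57BL/6 x DBA)F2, average age 63 days, had been pooled. RIP-Cre mice carry Cre recombinase under a rat insulin promoter, and a Cre-dependent virus (AAV-loxSTOPlox-GFP) marked the cells in which Cre had acted; the GFP-positive cells were then picked by hand from papain-digested tissue. All cells carry the same label, treatment and preparation, so they form 1 group and 1 pooled sample, which animal each cell came from is not given in the sources used here, and no test between groups and no p-value is possible. Cells are named by their label numbers, and levels are in RPKM (reads per kilobase of gene and per fixed number of reads), a scale that allows for the length of a gene and for depth. Depth was estimated at 887855 to 2956640 reads per cell, with a median of 1792570, and 3843 to 6183 genes per cell reached 10 RPKM, the level at which a gene was called detected.

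AP-1 is a family of transcription factors that bind DNA as pairs through a basic region and a leucine zipper. Fos proteins pair with Jun proteins, Jun proteins also pair among themselves, and Atf3 can pair with Jun proteins. Fos, Fosb, Jun and Junb are immediate early genes: in neurons their messenger RNA appears within minutes of firing, growth factor signals or injury and decays soon after, which is why Fos is used as a marker of recent activity. They are also known to be induced when tissue is cut and digested. Every cell here went through digestion, so levels present before it and levels raised by it cannot be told apart.

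The promoter sequences of 5 of the genes are shown because they carry, in the 200 bases before the annotated start, the letters TGACG, the core of the cyclic AMP response element through which activity signals reach immediate early genes, or TGACATCA, a variant AP-1 element. Sequences are from RefSeq on build GRCm38.p6, written 5′ to 3′ on the strand of the gene, with these letters, or their reverse complement, in capitals.
Fos promoter, chr12:85473690-85473889, plus strand: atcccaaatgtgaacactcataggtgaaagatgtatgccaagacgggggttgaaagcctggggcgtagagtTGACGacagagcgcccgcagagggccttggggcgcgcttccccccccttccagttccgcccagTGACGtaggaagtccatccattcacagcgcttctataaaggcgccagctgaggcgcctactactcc
Fosb promoter, chr7:19310046-19310245, minus strand: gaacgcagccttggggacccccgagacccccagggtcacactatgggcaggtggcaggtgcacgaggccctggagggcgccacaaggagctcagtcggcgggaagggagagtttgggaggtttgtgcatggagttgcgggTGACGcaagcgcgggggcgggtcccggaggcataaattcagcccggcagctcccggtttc
Jun promoter, chr4:95052223-95052422, minus strand: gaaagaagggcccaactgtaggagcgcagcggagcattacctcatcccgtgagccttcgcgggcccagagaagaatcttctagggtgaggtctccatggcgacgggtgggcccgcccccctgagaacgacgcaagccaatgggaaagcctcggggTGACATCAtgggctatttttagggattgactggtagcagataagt
Junb promoter, chr8:84978749-84978948, minus strand: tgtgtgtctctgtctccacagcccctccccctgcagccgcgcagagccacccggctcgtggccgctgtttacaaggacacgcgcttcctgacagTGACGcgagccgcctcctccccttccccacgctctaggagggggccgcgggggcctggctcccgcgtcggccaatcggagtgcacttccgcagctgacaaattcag
Atf3 promoter, chr1:191183334-191183533, minus strand: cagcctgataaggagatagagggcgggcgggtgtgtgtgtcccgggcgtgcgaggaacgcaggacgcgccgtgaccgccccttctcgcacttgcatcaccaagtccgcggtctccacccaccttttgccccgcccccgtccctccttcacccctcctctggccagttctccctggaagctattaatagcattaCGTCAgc

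TGACG was searched on both strands from 250 bases before to 50 bases after the start. It was found in 4 of the 7 genes with a promoter entry (Fos, Fosb, Junb and Atf3) and in 20.8% of all 32851 mouse promoters of that length. In Fos it stood at -129 to -125 and at -66 to -62, in Fosb at -60 to -56, in Junb at -106 to -102 and, on the reverse strand, in Atf3 at -7 to -3. TGACATCA was found in Jun at -45 to -38 and in no other of the 7, and in 3.62% of all promoters. The full palindrome TGACGTCA (1.79% of promoters), the consensus AP-1 element TGANTCA (7.81%) and the CArG box bound by serum response factor (1.63%) were in none of the 7 windows. The palindrome contains TGACG as a part. The TATA box letters TATAAA were in Fos, at -33 to -28, and in Junb, at 1 to 6, against 13.6% of promoters, and CCAAT was in Jun, Junb and Atf3, against 37.4%. The windows of Fosl2 and Jund held none of the letters searched. The RefSeq start lies inside the gene as GENCODE draws it for Fosb, Fosl2 and Atf3 and before it for Junb and Jund, so these windows are those of the RefSeq start only. For Jund the 200 bases before the RefSeq start end at chr8:70697738, while the GENCODE gene starts at 70698949. For Atf3, on the minus strand, they span chr1:191183334-191183533, while the GENCODE gene runs to 191218039. Sequence at those GENCODE starts was not searched. A match describes the letters and is no evidence of binding, and no match says only that these letters are not in this window.

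Fos was the highest AP-1 gene in most cells and among the most abundant messenger RNAs altogether. Fos, Fosb, Jun, Junb and Jund were detected in at least 22 of 25 cells, that is 5 of 8 members, where 5.39% of all symbols were detected as widely. The other 3 members were detected in 1 to 6 cells, as were 20.4% of all symbols. At the median depth, 10 RPKM is 42.2 reads of Fos, 29.9 of Jund and 174 of the long gene Fosl2. Intervals below are exact Clopper-Pearson 95% intervals and cover only the error of counting 25 cells; reads without molecular identifiers are not independent molecules.

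**Figure D1:**
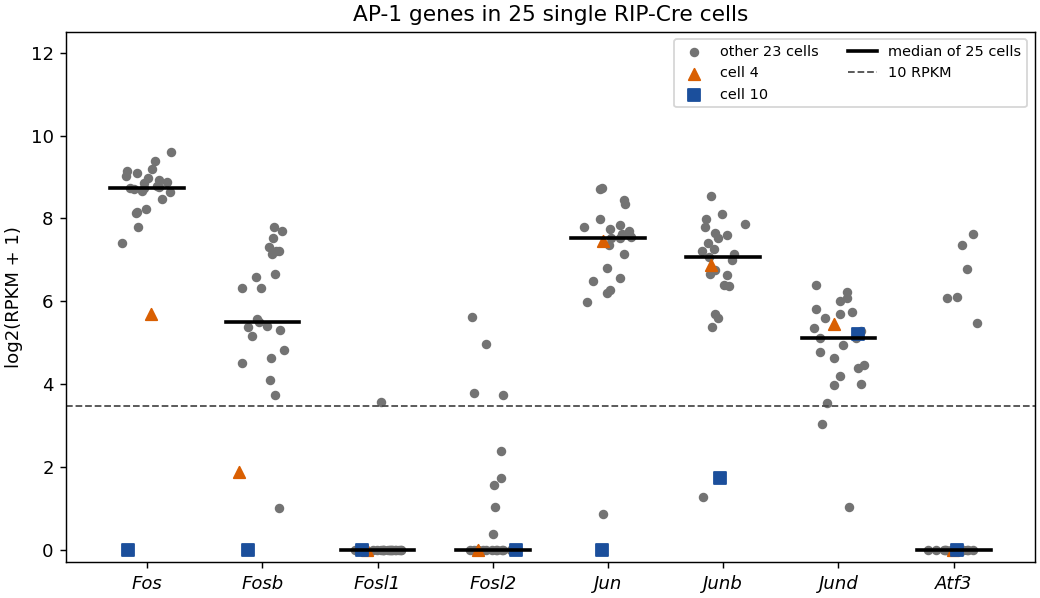
Level of each AP-1 gene in each of 25 cells, as log2(RPKM + 1). Points are cells, bars are medians over the 25 cells and the dashed line is 10 RPKM. Cell 10 lies at 0 for Fos, Fosb and Jun but at 35.8 RPKM for Jund, and cell 4 is low for Fos (50.3 RPKM) and Fosb (2.66 RPKM) but near the medians of Jun, Junb and Jund.

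Fos (chr12:85473890-85477273, plus strand, GENCODE M21 on GRCm38, as for all genes below) has 4 exon blocks and encodes the best known Fos protein. It was detected in 24 cells (96%, interval 79.6 to 99.9%). Its level ran from 0 in cell 10 through a median of 423 RPKM to 781 RPKM in cell 31. The middle of the distribution was narrow, with quartiles of 299 and 506 RPKM. Fos ranked among the 10 highest of all genes in 6 cells, among the 50 highest in 14 and among the 100 highest in 19. It was the highest gene of cell 5 (567 RPKM), the second highest of cells 11 and 31, and by its mean over cells it ranked number 27 of 30903 symbols. After cell 10, the lowest cells were 4, 29 and 34, at 50.3, 168 and 221 RPKM.

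**Figure D2:**
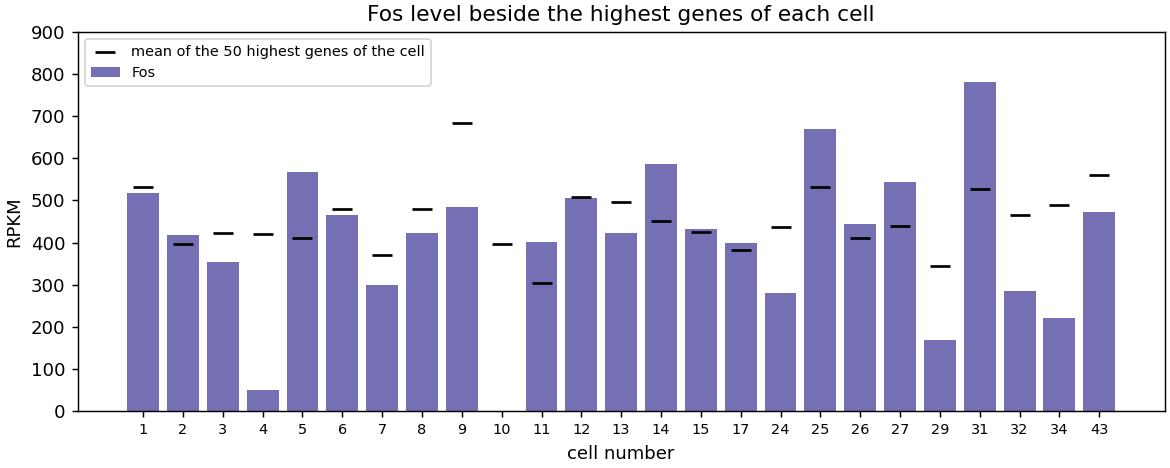
Fos level in RPKM (bars, linear axis from 0) in each cell, beside the mean level of the 50 highest genes of at least 0.5 kb in the same cell (black marks). Fos came to 97.0% of that mean in the median cell, from 0% in cell 10 and 12.0% in cell 4 to 148% in cell 31.

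In some cells, among them cells 5 and 31, Fos was above the mean of the 50 highest genes of the same cell. In the median cell it was at 97.0% of that mean. The 50 highest genes averaged 304 to 683 RPKM per cell, which at the estimated depths is 0.542 to 0.924 reads per base of gene, and Fos stood at a median of 0.757 reads per base. The highest value was 1.26 reads per base, in cell 5. Picard is among the tools in the submitters' processing notes, and its use is not stated. Its part in the highest values was not tested.

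Fosb (chr7:19302696-19310051, minus strand) encodes a Fos protein and a truncated, longer-lived splice form, which a value per gene does not separate. It was detected in 22 cells (88%, interval 68.8 to 97.5%) and ran from 0 through a median of 43.9 RPKM to 221 RPKM in cell 14. Cells 31 and 5 followed, at 207 and 183 RPKM. Cells 10, 17 and 4 stood below the detection level, at 0, 1.01 and 2.66 RPKM. Cell 17 held Fos at 398 RPKM, near the median of Fos, beside this lack of Fosb.

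Fosl1 (chr19:5447547-5455946, plus strand) and Fosl2 (chr5:32135801-32157842, plus strand), which encode Fra-1 and Fra-2, Fos proteins that lack the strong activation domain, were sparse. Fosl2 passed 10 RPKM in cells 2, 1, 6 and 11, with 48.2, 30.5, 12.7 and 12.3 RPKM (16%, interval 4.54 to 36.1%). A further 5 cells lay between 0.29 and 4.25 RPKM and 16 were listed at 0. Fosl1 reached the level in cell 14 alone, at 10.8 RPKM, while all other cells had Fosl1 listed at 0. The Fosl1 gene shares 2767 bases with Ccdc85b on the opposite strand, and the library type marks no strand, so the single Fosl1 value is uncertain. Ccdc85b was detected in 22 cells.

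Jun (chr4:95049034-95052222, minus strand, a single exon), the classical partner of Fos, passed 10 RPKM in 23 cells (92%, interval 74.0 to 99.0%). Its median was 184 RPKM, and cell 9 was highest at 425 RPKM. Cell 10 was listed at 0 and cell 12 held 0.82 RPKM, although cell 12 had Fos at 506 RPKM and Junb at 141 RPKM. The next lowest value was 62.6 RPKM, in cell 17. No cell lay between 0.82 and 62.6 RPKM. The antisense gene Junos covers 689 bases of Jun, and its reads cannot be told apart from those of Jun.

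Junb (chr8:84974484-84978718, minus strand), whose product forms weaker activating pairs than Jun and can oppose it, was also detected in 23 cells. It ran from 1.41 RPKM in cell 9 through a median of 134 RPKM to 374 RPKM in cell 1. Cell 9, lowest in Junb, was the cell highest in Jun, while cell 10 had 2.29 RPKM of Junb. Above these, values began at 40.7 RPKM. The last 351 bases of Junb overlap Prdx2, a peroxiredoxin gene on the opposite strand that was detected in all 25 cells (up to 334 RPKM), so reads there cannot be assigned by strand.

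Jund (chr8:70698949-70700616, plus strand, a single exon), the Jun gene usually described as expressed at a steady level and not as immediate early, had the lowest median of the widely detected members. It was listed above 0 in all 25 cells, from 1.05 RPKM in cell 43 through a median of 33.7 RPKM to 83.3 RPKM in cell 25, and was detected in 23 (92%). On either side of 10 RPKM were cell 13, at 7.22 RPKM, and cell 34, at 10.7 RPKM. The antisense gene Gm11175 covers 919 bases of Jund, without strand to separate them. The standard deviation of log2(RPKM + 1) over cells was 1.17 for Jund, against 1.73 for Junb, 1.88 for Fos, 2.05 for Fosb and 2.08 for Jun. Over the 2166 symbols detected in at least 20 cells the median of this spread was 1.34, and 45.3% of them spread less than Jund and 82.9% less than Jun. This order rested on single cells: without cell 10 the standard deviation was 0.79 for Fos, below Jund at 1.196, and 1.43 for Junb, 1.54 for Jun and 1.75 for Fosb. Without cells 9, 10 and 12 it was 0.74 for Jun, 0.82 for Fos, 0.84 for Junb, 1.24 for Jund and 1.82 for Fosb. Without cell 43 it was 0.88 for Jund. Junb and Jund transcripts are also rich in G and C, at 62.6% and 67.1% of bases in the longest coding transcript, against 51.9% for Fos and a median of 49.1% over 21877 genes. The part of base composition in their levels was not tested.

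Atf3 (chr1:191170296-191218039, minus strand), a stress- and injury-induced partner of Jun proteins, was present in a minority of cells at high level. It reached 10 RPKM in 6 cells (24%, interval 9.36 to 45.1%), at 198 RPKM in cell 25, 163 in cell 31, 109 in cell 14, 67.7 in cell 29, 66.8 in cell 2 and 43.3 in cell 11. The remaining 19 cells had Atf3 listed at 0, with no low values between.

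**Figure D3:**
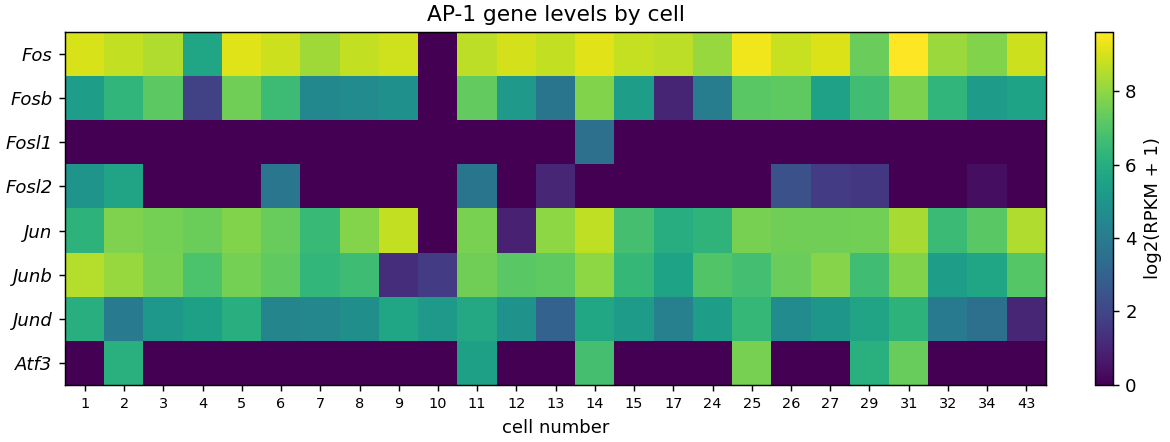
The 8 AP-1 genes (rows) in the 25 cells (columns, by cell number), coloured by log2(RPKM + 1). The columns of cells 14 and 31 are bright in most rows, that of cell 10 is dark in all rows but Jund and, faintly, Junb, and the bright cells of the Atf3 row are 2, 11, 14, 25, 29 and 31.

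The order of the medians was Fos, Jun, Junb, Fosb and Jund, and the ranges of all 5 overlapped. Within cells, Fos was above Jun in 22 of 25 and below it in 2, Jun was above Junb in 18, Junb above Fosb in 22 and Fosb above Jund in 18. Fos was the leading AP-1 gene of 22 cells, Jun of cells 4 and 29 and Jund of cell 10. The Fos, Fosb, Fosl1 and Fosl2 values summed to a median of 511 RPKM per cell and the Jun, Junb and Jund values to 378 RPKM, with the Fos sum the larger in 22 cells. The Fos-to-Jun ratio of these sums ranged from 0 in cell 10 and 0.159 in cell 4 through a median of 1.29 to 3.15 in cells 12 and 17. These sums describe messenger RNA and not the protein pairs.

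The number of members detected together was 5 in 10 cells, 4 in 6 cells, 6 in 5 cells, 7 in 3 cells (2, 11 and 14) and 1 in cell 10. No cell carried all 8. The summed level of the 8 ran from 38.1 RPKM in cell 10 and 387 RPKM in cell 4 through a median of 909 RPKM to 1646 RPKM in cell 14 and 1772 RPKM in cell 31.

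In cell 10, singled out after its values were seen, Jund was the 1 member detected. Fos, Fosb, Jun, Fosl1, Fosl2 and Atf3 were listed at 0, Junb at 2.29 RPKM, and Jund at 35.8 RPKM, close to its median. Its estimated depth was 2215000 reads, 5031 genes reached 10 RPKM (median of all cells 4896) and the GABA synthesis gene Gad1 stood at 108 RPKM. Of 1176 genes detected in at least 23 of the other 24 cells, 18 were listed at 0 in cell 10, where the count made the same way for each cell had a median of 13 and was highest, at 90, in cell 43. Of the 16 other immediate early genes, 15 were at 0 in cell 10, against 5 to 12 (median 8) in each of the other 24 cells. Of all symbols, 76.5% were at 0 in cell 10, against 70.0 to 82.5% in the others. The exception was the zinc finger factor Egr1, at 47.2 RPKM, which was its lowest value in any cell. The phosphatase gene Dusp1, median 228 RPKM, was also at 0. Cell 4 was partly alike, with Fos and Fosb low, Dusp1 at 0 and Egr1 at 60.0 RPKM, but Jun at 174 RPKM and Junb at 117 RPKM.

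Pearson's correlation of Fos with Jun and Junb rested on cell 10. Pearson's r of log2(RPKM + 1) over 25 cells was 0.67 for Fos with Fosb, 0.64 for Fos with Jun, 0.58 for Fos with Junb, 0.54 for both Fosb with Jun and Fosb with Junb, and 0.36 for Jun with Junb. Without cell 10 these became 0.49, 0.034, 0.14, 0.27, 0.33 and -0.073. Leaving out cell 4 as well brought Fos with Fosb to 0.25. Jund had r of -0.017 with Fos, -0.053 with Jun and 0.010 with Junb, while by rank its rho was 0.39, 0.17 and 0.26 with the same genes. Cells 9 and 12, with almost no Junb and Jun, also weigh on these values: without cells 9, 10 and 12, r was 0.52 for Fos with Fosb, 0.25 for Fos with Jun, 0.38 for Fos with Junb and 0.45 for Jun with Junb. Spearman's rho over the 24 cells without cell 10 was 0.47 for Fos with Fosb, 0.39 for Fos with Jun, 0.48 for Fos with Junb and 0.55 for Fosb with Junb. The cells share a pool and each pair of values shares a library, so these are descriptions of 25 cells.

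**Figure D4:**
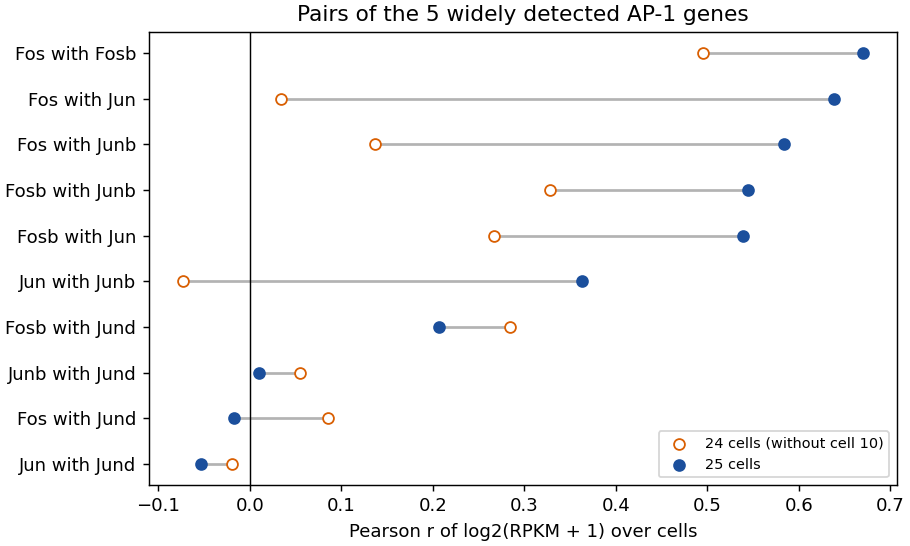
Pearson's r of log2(RPKM + 1) over cells for the 10 pairs of Fos, Fosb, Jun, Junb and Jund, in 25 cells (filled) and in the 24 cells without cell 10 (open). Each pair of Fos, Fosb, Jun and Junb has a lower r without cell 10, and Fos with Fosb is the highest of the 10 without it, at 0.49.

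Fosb in the 6 cells with Atf3 lay above its median over all cells, 43.9 RPKM. Their Fosb levels were 79.2 to 221 RPKM, against 0 to 183 RPKM in the other 19 cells, of which 4 exceeded the lowest Atf3 cell. The ranges overlap. Cells 14, 25 and 31, which led in Atf3, were also the 3 highest in Fos (586, 670 and 781 RPKM), while cell 29 was low in Fos (168 RPKM) with Atf3 at 67.7 RPKM. Pearson's r of Atf3 was 0.50 with Fosb, 0.39 with Jund and 0.19 with Fos. Cells 2 and 11 carried both Atf3 and Fosl2.

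The ranges of Fos and Jund overlapped between all kinds of cell compared. Each kind was called by a single gene at 10 RPKM or more, so the kinds share cells and are not separate cell types. Cells 8 and 43 had Th, Pomc and Agrp, and cells 14 and 29 had both Pomc and Agrp. In the 8 cells with Th, the gene of the dopamine-synthesis enzyme tyrosine hydroxylase, Fos ranged from 354 to 518 RPKM, with a median of 437, against 0 to 781 RPKM with a median of 418 in the other 17. In the 5 cells with somatostatin (Sst), Fos ranged from 466 to 781 RPKM, with a median of 518, against 0 to 586 RPKM with a median of 410 in the other 20. Jund in the Sst cells ranged from 19.95 to 83.3 RPKM, median 63.5, against 1.05 to 66.1 RPKM, median 31.5. Median Fos was 433 RPKM in the 10 cells with the melanocortin precursor Pomc, against 418 RPKM in the other 15, and 431 RPKM in the 9 cells with the feeding peptide Agrp, against 421 RPKM in the other 16. The glutamatergic cells 7 and 27 (Slc17a6) had Fos at 299 and 545 RPKM and no Atf3, which was detected in only 6 of the other 23 cells. None of these was tested, since cells of a pool are not replicates, and each group is small.

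Features of the library were set beside the levels. With the number of genes detected in a cell, Fos had Pearson's r of -0.18 (-0.39 without cell 10) and Spearman's rho of -0.62. With the mean of the 50 highest genes it had r of 0.28 (0.34 without cell 10) and rho of 0.56. For Jun r was -0.10 and 0.16 and rho -0.36 and 0.28, and for Fosb r was -0.12 and 0.068 and rho -0.30 and 0.0092, with the same features. The nuclear RNA Malat1 was below 20 RPKM in 6 cells (1, 3, 5, 6, 29 and 31), where Fosb had a median of 123 RPKM (41.2 to 207), against 38.9 RPKM (0 to 221) in the other 19. Jund had a median of 55.5 RPKM (19.95 to 73.8) in those 6 cells, against 29.6 RPKM (1.05 to 83.3) in the other 19. Cells 1, 6 and 31 of those 6 were also cells with Sst, so the Sst and Malat1 comparisons of Jund share cells. Cells 29 and 31 were also cells with Atf3, so the Atf3 and Malat1 comparisons of Fosb share cells. The part of these features in the levels was not tested.

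Neuronal markers were present in every cell. At least 4 of the 6 neuronal markers Snap25, Syt1, Tubb3, Stmn2, Elavl4 and Rbfox3 were detected in each cell, with a summed level of 591 to 1249 RPKM, and cell 10 held 5. The summed level was at most 2.72 RPKM for 4 astrocyte markers, 1.04 for 5 microglial markers, 26.7 for 4 endothelial, 20.7 for 3 mural, 27.7 for 3 tanycyte or ependymal and 15.2 for 4 pituitary markers, and both oligodendrocyte precursor markers were at 0. The defining genes Gfap, C1qa, Cldn5, Pdgfrb, Mog, Pdgfra and Rax were at 0 in all 25 cells.

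Beyond the members, the other genes of the pathway were read from lists and counted as detected in most cells, meaning at least 13, as were 13.5% of all symbols, or in no cell, as were 57.3%.

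Of 17 kinases upstream of AP-1, 9 were detected in most cells and all in at least 1. The ERK-activating kinase Map2k1 (median 222 RPKM), the JNK-activating kinase Map2k4 (90.5 RPKM) and the protein kinase A subunit Prkaca (123 RPKM) were detected in all 25 cells and the neuronal JNK gene Mapk10 (33.7 RPKM) in 24. Map2k2 was detected in 20. In cell 10, 8 of the 17 were detected, among them Map2k1 at 87.1 RPKM and Prkaca at 135 RPKM. Of all 30903 symbols, 5031 were detected in that cell. These kinases were not counted in each of the other cells, so cell 10 is not compared with them here.

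Of 16 transcription factors that act on AP-1 promoters, Mkl2 (a cofactor of serum response factor, in 23 cells) and Crtc1 (a CREB coactivator, in 18) were in most cells, a share near that of all symbols. Mef2d was in 12, Crebbp in 11, Mef2a in 9 and Crem in 8. Srf itself was in 2 cells. Creb1 and Elk4 were in none, at highest values of 5.66 and 7.31 RPKM.

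Of 13 basic zipper genes that can pair or compete with AP-1, the stress response factor Atf4 was detected in 23 cells (median 82.3 RPKM), Atf2 in 20 (21.9 RPKM) and Ddit3 in 14 (42.7 RPKM). Mafg was in 6 cells and Atf7 and Mafk in 5 each. Batf, Batf2 and Batf3, which act in immune cells, were listed at 0 throughout, and Jdp2, a repressor of Jun pairs, stayed below 8 RPKM.

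Feedback inhibitors were led by Dusp1, a phosphatase of ERK and JNK kinases, in 22 cells at up to 389 RPKM. Both cells where Dusp1 was at 0 were the lowest in Fos, cells 10 and 4. It was the only 1 of 12 in most cells. Dusp6 was in 10 cells, Dusp14 in 8, Ier3 in 6, Dusp5 in 5 and Dusp4 and Dusp10 in 4 each, while Zfp36l1 was in none (9.80 RPKM in cell 25). The decay factor gene Zfp36, which acts on AU-rich messenger RNAs, was in 1 cell. The AU-rich element TTATTTATT was counted once in the longest coding transcript of Fos and once in Fosl2, and in none of the other 6 members. It occurred in 5.13% of 4272 coding transcripts within 20% of the length of Fos and in 15.7% of 2220 near the length of Fosl2.

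Of 16 other immediate early genes, 5 were in most cells, and cells held a median of 6 of them, with 1 in cell 10 and 11 each in cells 11 and 27. The zinc finger factor Klf6 was in 19 cells (28.2 RPKM), the orphan nuclear receptor Nr4a1 in 18 (91.3 RPKM), the activity-dependent neuronal factor Npas4 in 16 (26.9 RPKM) and the synaptic regulator Arc in 14 (37.3 RPKM), beside Egr1 in all 25. Nr4a3 and Btg2 were in 12 each.

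Of 14 genes linked to AP-1 as targets in other settings, the secretory granule gene Scg2 (374 RPKM) and the neuronal kinase gene Cdk5 (106 RPKM) were in all 25 cells, the AMPA receptor subunit Gria2 in 24, the peptide precursor Vgf in 14, the enkephalin precursor Penk in 10 and the galanin gene Gal in 5; Plaur was in none. In cell 10, 9 of the 14 were at 0, Penk among them, against 5 to 11 (median 9) in each of the other cells. Detected there were 5, with Scg2 at 355 RPKM, Cdk5 at 106 RPKM and Gal at 174 RPKM.

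Of 11 injury and stress genes, the axon growth gene Gap43 (427 RPKM) was in all 25 cells, Gadd45g (208 RPKM) in 24, the heat shock gene Hspa1a in 15, Gadd45b in 13, Sox11 in 11 and Gadd45a in 10. Sprr1a and Trib3 were listed at 0 throughout and Hspa1b stayed below 1 RPKM. In cell 10, Hspa1a was at 0 and Gadd45b at 70.9 RPKM.

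**Figure D5:**
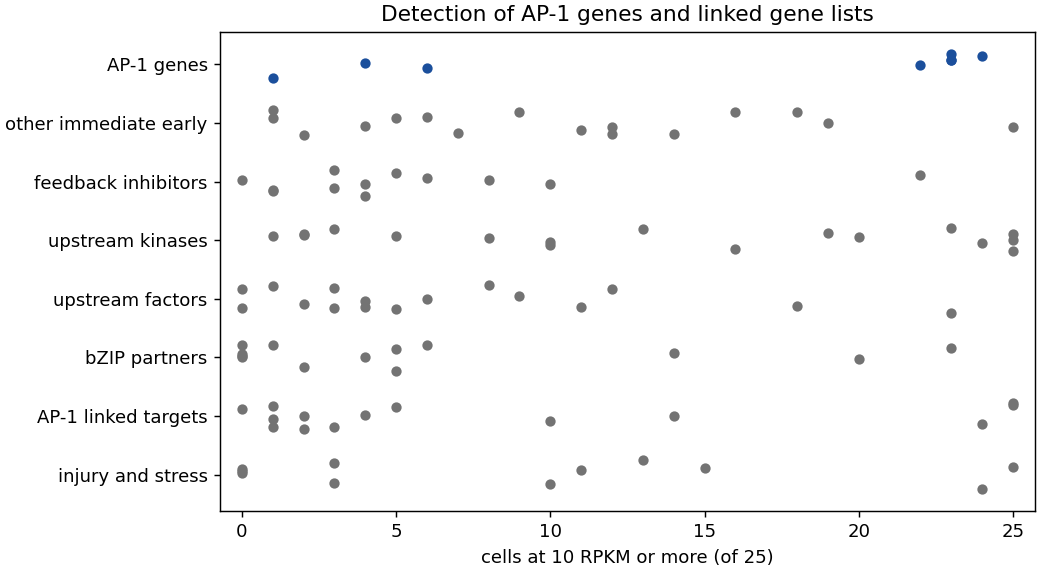
Number of cells, of 25, in which each gene was at 10 RPKM or more, for the AP-1 genes (blue, top row) and 7 lists of linked genes (grey). Points are genes, spread vertically within a row for legibility; the AP-1 genes fall into 5 at 22 to 24 cells and 3 at 1 to 6 cells.

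No ranking was made for Fosl1 and Fosl2, detected in fewer than 5 cells. For the other members, the genes with the most like profile over cells were found by Pearson's r of log2(RPKM + 1). They were ranked among 5363 symbols detected in at least 10 cells. For Fosb they were Sik1, a salt-inducible kinase (0.75), Gnl1 (0.73), Egr1 (0.66), Chmp3 (0.65) and Dtx1 (0.65). Without cell 10, Chmp3 and Sik1 led, at 0.73 each, and Egr1 had 0.58. For Atf3 they were Irak1 (0.67), Rabgef1 (0.63), Vgf (0.62), Usf2 (0.60) and Gfer (0.59). For Jund they were Txndc17 (0.74), Tubb4b (0.73), Ostc (0.72), Gng10 (0.72) and Dctn6 (0.70), the same 5 with or without cell 10. Cell 10 held Jund near its median, however, and cell 43, the lowest in Jund, was not left out of this ranking. By rank, rho with Jund was 0.62 for Txndc17 but 0.34, 0.33, 0.33 and 0.35 for Tubb4b, Ostc, Gng10 and Dctn6.

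For Fos the leading genes changed without cell 10. Chchd1 (0.86), Sec61b (0.86), Paf1 (0.83), Rps12 (0.83) and 9530068E07Rik (0.77) were all listed at 0 in cell 10, and without it their r was 0.34, 0.27, 0.099, 0.14 and 0.61. For Jun they were Lamtor2 (0.70), Rps12 (0.70), Dhx30 (0.70), Rbbp4 (0.68) and Spock3 (0.63), which without cell 10 had 0.51, 0.28, 0.75, 0.37 and 0.33. For Junb they were Sec61g (0.75), Btg1 (0.72), Map9 (0.69), 1700086L19Rik (0.68) and Napb (0.67), which without cell 10 had 0.78, 0.63, 0.69, 0.53 and 0.44. These are the highest of many values over few cells and are given as descriptions.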

How the data were processed

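Messenger RNA was measured in 25 single cells of 1 pool with Smart-Seq2 and Nextera XT, per the labels. This library type has neither molecular identifiers nor strand. The table the authors deposited is called a count table, but its values fit RPKM. The submitters' processing notes name mm10 and GRCm38 and, as tools, featureCounts 1.4.6, SAMtools 0.1.19, Picard 2.5.0, TopHat2 2.0.14 and bcl2fastq. The annotation, and what Picard was used for, is not given in the sources used here.

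Of 33082 rows, 26 whose names had become dates were left out, and each of 755 symbols on several rows was read from its highest row. Depth was estimated from the steps between low values of 3261 genes with 1 transcript in GENCODE M21 (GRCm38). The sum of value times exon length was 1.38 to 1.46 times what it would be with the lengths used here, so read numbers are estimates. The depth estimate and the likeness ranking were tested on simulated data. Python 3.11.15, pandas 2.3.3 and scipy 1.17.1 were used. All cells are 1 sample, so no test was made. The rule named all 8 members, and up to 6 genes of each list in most cells and up to 3 in none. It also named the 5 most like genes of each member detected in at least 5 cells. Any further gene, and cells 4, 9, 10 and 12, were picked with their values known. Some genes of these lists are not reported here. Members and lists were chosen with earlier results of these data known. Alternatives were other detection levels, pseudocounts, scalings and sets of cells.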

Additional observations from a re-analysis of the deposited data

How the results depend on the processing

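Alternatives were detection at 1 or 20 RPKM, other pseudocounts, Spearman's rho, low values set to 0, cells rescaled to 1 sum, repeated names summed, and cells low in Malat1 or cells 4, 9, 10 or 12 left out. Of 95 alternative values for detection, median level, members per cell and mean correlation, 90 stayed within the interval or spread of the reported one. The other 5 were detection of Junb and Jund in 100% of cells at 1 RPKM, of Jund in 72% and Fosl1 in 0% at 20 RPKM, and of Fos in 100% with cell 10 left out. Each member stands on a single row, so summing repeated names could not change its values, and those alternatives are among the unchanged ones. A median counted as unchanged if it moved by less than the standard deviation over cells, which is a wide margin. The medians of Fosl1, Fosl2 and Atf3, each listed at 0 in at least 16 cells, could not move from 0. The mean r of the 28 pairs was 0.26 and ran from 0.20 (without cell 10) to 0.31 (Spearman). Of 90 alternative values for single pairs, 16 moved by more than 0.21, the spread of the 28. The spread of Fos, Jun and Junb over cells also moved by over 1.5 times when cells 9, 10 and 12 were left out. The alternatives that leave out cells 4, 9, 10 or 12 were added after seeing the data. No paired analysis was possible because there is 1 group. Depth and the length of the gene limit what 10 RPKM can detect, and 1 pool cannot show variation between animals.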
